A study of Mus musculus with 12 samples.

Results

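Regulatory T cells (Treg) taken from the animal were compared between wild-type mice (WT) and mice in which Kdm2b is conditionally knocked out (cKO). The comparison is made of 4 of the 12 libraries of the series, namely those of the in vivo table whose column names end in the Treg genotype. They are the WT libraries D456 and D571 and the cKO libraries D427 and D455, 2 per group. The other 8 libraries, WT and cKO Treg held unstimulated or stimulated in vitro, were used here only to read the same genes a second time. All 12 libraries are of polyadenylated RNA, with spleen and lymph nodes given as the tissue. The driver and the deleted exons of the conditional allele, and the age and sex of the mice, are not given in the sources used here, and no treatment is named for the in vivo groups. Genes are described where their mean over the 4 libraries was at least 1 FPKM (fragments scaled to gene length and library size), which 10415 of 16232 listed genes reached. Fold changes, also given as log2 changes, are cKO over WT on log2(FPKM + 1), a scale that makes the change of low genes look smaller. Values of a pair are given in the order D456, D571 and D427, D455.

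Treg are CD4 T cells that hold other immune cells in check and depend on the transcription factor Foxp3. KDM2B is a histone demethylase with a zinc finger that binds unmethylated CpG, and it recruits PRC1.1, a variant Polycomb repressive complex that also holds BCOR or BCORL1, PCGF1 and the ubiquitin ligases RING1 or RNF2. PRC1.1 places ubiquitin on histone H2A at CpG-rich promoters, a mark associated with low transcription.

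The FPKM of a library summed to between 461753 and 475374, and 1138 to 1461 of the listed genes were at 0. Read numbers are not given in the sources used here, so depth is unknown and no interval is given for counting error. The 2 WT libraries were more alike than the 2 cKO libraries: the median gene differed by 0.0940 on the log2 scale between D456 and D571 and by 0.179 between D427 and D455. Library D427 lay further from the WT libraries, with a median difference of 0.204 and 0.207, than D455 did, with 0.134 and 0.132. Nothing in the labels says that the libraries came from separate animals, so the p-values cover no more than the spread between these samples, possibly a technical one. Kdm2b itself was at 113 and 110.4 FPKM in the WT pair and at 146 and 125 in the cKO pair (log2 change 0.28, adjusted p = 0.354). A level over the whole gene does not show whether part of a conditional allele was removed, so the label is not checked by it, and the genotypes are as labelled. In bulk RNA, fewer cells of a type and less RNA per cell cannot be told apart.

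In cKO Treg, 24 genes were called higher and 15 lower, 39 of 10415 genes tested or 0.374% (limma, p adjusted by Benjamini-Hochberg over all genes, under 0.05). Those called higher are 0.23% of the genes tested and those called lower 0.144%. In 34 of the 39 the log2 fold change was at least 1 in size, and the smallest was 0.82. Groups did not overlap in all 39 called genes, which was also so for 21.5% of all tested genes in the higher and 25.8% in the lower direction. The median over all genes tested was -0.02. Of the called genes, 12 were called whichever of the 4 libraries was left out, 6 in 3 of those 4 fits and 21 in fewer. The 12 were Camk2n1, Rnf157, Slc43a1, Lmo4, Mt1, Mt2, Slc16a3, an entry without a symbol, Nrn1, Cd86, Itgb1 and Actg2. The number called was 29 without D456, 17 without D571, 425 without D427 and 1994 without D455, so setting 1 cKO library aside raised it more than 10-fold. In such a fit the lone library of a genotype is assumed to vary like the other genotype's. The WT libraries were more alike than the cKO libraries, so calls kept without a cKO library do not measure stability.

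**Figure D1:**
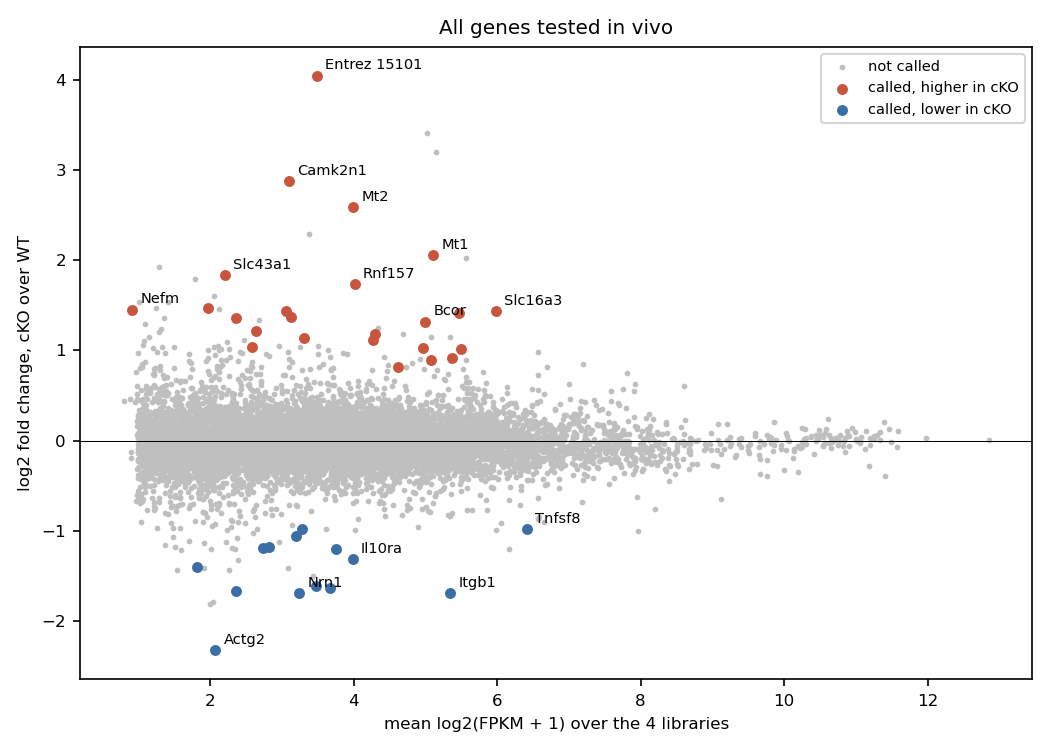
Each point is a gene tested in vivo, with its mean log2(FPKM + 1) over the 4 libraries on the x axis and its log2 fold change of cKO over WT on the y axis; called genes are coloured. Camk2n1 and Mt2 lie at 2.87 and 2.59 and Actg2 at -2.32, while the bulk of the genes lies around -0.02.

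The called genes rose or fell together in both libraries of a genotype. Camk2n1 (chromosome 4, 138455148 to 138460126, GRCm38), whose protein inhibits the calcium/calmodulin-dependent kinase CaMKII, was at 2.02 and 2.29 FPKM in the WT libraries and at 21.8 and 22.4 in the cKO libraries. It was low in both WT libraries and of similar level in both cKO libraries, a log2 change of 2.87 (SE 0.12, adjusted p = 0.000705). Pde4a, a phosphodiesterase that breaks down cyclic AMP, was at 4.11 and 3.98 FPKM in the WT pair and 12.9 and 12.3 in the cKO pair (log2 change 1.43, adjusted p = 0.0205). Among 26 tested genes of CaMK and cyclic nucleotide signalling these 2 were called, both higher, while 16 of the 26 lay below 0 and the median was -0.10. The phosphodiesterase Pde2a did not pass the test, at 35.3 and 45.9 FPKM in the WT pair against 20.9 and 19.7 in the cKO pair (adjusted p = 0.0624). Neither did the adenylate cyclase Adcy6, at 3.59 and 3.38 FPKM against 6.37 and 6.92 (adjusted p = 0.0704).

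The metallothioneins Mt1 and Mt2, small proteins that bind zinc and copper, lie side by side on chromosome 8 (GRCm38), Mt2 at 94172618 to 94173567 and Mt1 at 94178883 to 94180327. Their promoters are printed because both genes rose together. Each is the first window that RefSeq (GRCm38.p6) lists for the gene, of 300 bases from 250 before to 50 after a transcript start, at chr8:94178839-94179138 on the plus strand for Mt1 and chr8:94172368-94172667 on the plus strand for Mt2. Capitals mark TGCACNC or TGCGCNC on either strand, the core of the metal response element bound by the zinc-sensing factor MTF1.
Mt1: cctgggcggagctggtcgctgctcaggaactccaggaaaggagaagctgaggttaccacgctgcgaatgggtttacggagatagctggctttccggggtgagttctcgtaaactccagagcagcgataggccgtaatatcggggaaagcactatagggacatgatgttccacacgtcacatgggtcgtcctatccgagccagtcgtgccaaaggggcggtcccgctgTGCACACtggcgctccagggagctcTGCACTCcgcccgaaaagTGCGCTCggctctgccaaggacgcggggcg
Mt2: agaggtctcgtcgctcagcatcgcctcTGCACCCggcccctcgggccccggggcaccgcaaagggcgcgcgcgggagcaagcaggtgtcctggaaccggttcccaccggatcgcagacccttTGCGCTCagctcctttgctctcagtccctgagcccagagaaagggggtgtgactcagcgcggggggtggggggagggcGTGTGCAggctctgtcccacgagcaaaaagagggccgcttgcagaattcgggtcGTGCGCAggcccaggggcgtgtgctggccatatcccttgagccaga
The Mt1 window holds 3 matches and the Mt2 window 4. At least 1 match was found in 36.9% of the 8472 windows of tested genes and at least 3 in 3.48%. A match describes these letters and is not a measured binding site.

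Mt1 was at 14.4 and 17.7 FPKM in the WT pair and at 55.4 and 86.5 in the cKO pair (log2 change 2.05, SE 0.21, adjusted p = 0.0261). Mt2 was at 4.52 and 6.63 FPKM in the WT pair and at 28.8 and 49.8 in the cKO pair (log2 change 2.59, SE 0.27, adjusted p = 0.0261). In both genes the cKO libraries lay at least 3-fold above the higher WT library, and D455 was higher than D427. The transcripts are alike in sequence, and how shared reads were assigned is not given, so the split between the genes is uncertain. Of 20 tested genes of the metallothionein and zinc list, these 2 were called, 12 lay above and 8 below 0, and the median was 0.06. The factor Mtf1 had a log2 fold change of 0.04 and Slc30a1, the zinc exporter of the cell membrane, one of 0.22, and neither passed the test.

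Bcor, the scaffold of PRC1.1 (chromosome X, 12036737 to 12160516, GRCm38), was at 21.6 and 17.0 FPKM in the WT pair and at 44.9 and 54.2 in the cKO pair (log2 change 1.32, SE 0.15, adjusted p = 0.0373). It was the only one of 10 tested PRC1.1 genes to be called, and their median was 0.05. Its paralog Bcorl1 was at 1.98 and 1.59 FPKM in the WT pair against 4.36 and 4.78 in the cKO pair and did not pass (log2 change 1.00, adjusted p = 0.0610). The subunits Pcgf1, Rnf2, Ring1, Rybp, Yaf2 and Skp1 lay between -0.34 for Yaf2 and 0.19 for Ring1, none of them called. Of 20 tested genes of other PRC1 complexes 0 were called by limma, 3 had an unadjusted p under 0.05, all higher, and the median was 0.16. Of 12 tested PRC2 genes 0 were called, 1 had an unadjusted p under 0.05 in each direction, and the median was -0.04. Epop, a PRC2 cofactor, had the highest value there, 0.81 (adjusted p = 0.0713). Among all genes tested with limma, 1350 had an unadjusted p under 0.05, which is 6.14% in the higher and 6.82% in the lower direction.

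The promoters of Bcor and of 2 genes that fell, described further on, are printed to show how CpG, the dinucleotide that KDM2B binds, is spread in them. CpG is in capitals in the first RefSeq (GRCm38.p6) window of each gene, at chrX:12160297-12160596 on the minus strand for Bcor, chr8:128685404-128685703 on the plus strand for Itgb1 and chr1:161788446-161788745 on the minus strand for Fasl.
Bcor: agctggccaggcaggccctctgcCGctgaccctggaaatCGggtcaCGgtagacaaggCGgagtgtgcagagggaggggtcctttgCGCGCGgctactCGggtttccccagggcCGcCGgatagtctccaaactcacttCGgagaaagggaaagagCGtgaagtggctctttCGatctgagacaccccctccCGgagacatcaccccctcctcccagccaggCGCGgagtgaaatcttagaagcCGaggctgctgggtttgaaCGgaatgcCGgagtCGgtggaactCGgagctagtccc
Itgb1: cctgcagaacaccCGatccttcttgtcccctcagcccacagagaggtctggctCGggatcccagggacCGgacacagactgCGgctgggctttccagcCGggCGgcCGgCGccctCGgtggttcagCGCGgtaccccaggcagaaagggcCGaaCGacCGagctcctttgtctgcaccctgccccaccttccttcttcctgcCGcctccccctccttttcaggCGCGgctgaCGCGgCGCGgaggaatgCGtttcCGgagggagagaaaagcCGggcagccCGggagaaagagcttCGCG
Fasl: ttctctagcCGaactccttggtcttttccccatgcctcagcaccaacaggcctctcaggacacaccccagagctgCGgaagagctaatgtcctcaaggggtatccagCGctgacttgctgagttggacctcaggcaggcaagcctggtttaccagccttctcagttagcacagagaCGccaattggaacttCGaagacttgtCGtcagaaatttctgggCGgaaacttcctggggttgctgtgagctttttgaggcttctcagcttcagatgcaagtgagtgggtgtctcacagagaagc
The Bcor window holds 21 CpG, equal to the median of 21 over the windows of tested genes, the Itgb1 window 27 and the Fasl window 7, and 99.4% of those windows hold at least 1. Only 23 of the 39 called genes, 59.0%, have a window in the RefSeq table, so no comparison of called genes with the rest was made. Among those of genes called higher, Lmo4 has 52 CpG, Rnf157 48, Kctd12 45 and Tent5a and Agrn 42 each, and Eno2 has the fewest, 15. The others besides Bcor lie between, with Slc16a3 at 36, Pde4a at 29 and Slc43a1, Bcl3 and Klc3 at 26 each. Mt1 and Mt2 have 24 each, Abcb9 23 and Utf1 17. Of the windows of genes called lower that are described here, Itgb1 has the most, 27. Tnfsf8 has 9, Cd79a 8, Fasl 7, Ptpn5 6, Fcrl1 4 and H2-DMb1 the fewest, 3.

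Carriers and enzymes of amino acid and sugar metabolism were among the genes that rose. Slc43a1, a carrier of branched-chain amino acids (chromosome 2, 84838855 to 84863586), was at 1.38 and 1.52 FPKM in the WT pair and at 6.77 and 8.76 in the cKO pair (log2 change 1.83, SE 0.16, adjusted p = 0.0205). Gls2, a mitochondrial glutaminase, was at 4.10 and 4.82 FPKM in the WT pair and at 13.7 and 12.4 in the cKO pair (log2 change 1.37, adjusted p = 0.0261). They were the 2 called of 17 tested genes of the amino acid list, whose median was 0.03. Slc16a3, the carrier that exports lactate, was at 32.6 and 42.7 FPKM in the WT pair and at 117 and 89.8 in the cKO pair (log2 change 1.44, adjusted p = 0.0374). It was the only one of 29 tested genes of glycolysis and lactate to be called, with a median of -0.04, or 0.07 without library D427. Eno2, an enolase found mostly in neurons, is not in the glycolysis list. It also rose, from 2.16 and 2.27 FPKM to 6.09 and 8.51 (log2 change 1.35, adjusted p = 0.0434).

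The fatty acid desaturase Scd1 fell, from 7.09 and 9.35 FPKM in the WT pair to 1.99 and 1.79 in cKO (log2 change -1.66, SE 0.16, adjusted p = 0.0261). It was the only called one of 30 tested genes of cholesterol and fatty acid synthesis. The list leaned the other way, with 25 of the 30 above 0, none of them called, and a median of 0.19, which was -0.06 without library D455. The elongase Elovl6, for one, was at 6.81 and 6.93 FPKM in the WT pair against 19.0 and 12.2 in the cKO pair (adjusted p = 0.0986). Scd1 was thus the lowest gene of a list that otherwise lay mostly above 0.

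Several regulators of transcription rose. Lmo4, a LIM-only adaptor that joins transcription factors to cofactors, was at 23.0 and 30.0 FPKM in the WT pair and at 72.4 and 70.7 in the cKO pair (log2 change 1.41, adjusted p = 0.0261). Foxj1, a forkhead factor best known from ciliated cells, was at 1.36 and 1.34 FPKM in the WT pair and at 6.38 and 4.76 in the cKO pair (log2 change 1.47, adjusted p = 0.0353). Both belong to the list of developmental regulators, of which 11 of 50 listed in the table passed the filter on low values. The rest had a mean under 1 FPKM, and a gene high in only 1 genotype could pass that filter through it, so nothing is read from the median of the 11, 0.26. Of the others Sox4 had 6.30 and 6.52 FPKM in the WT pair against 11.5 and 9.25 in the cKO pair without passing (adjusted p = 0.156).

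Utf1, a chromatin factor of pluripotent cells, rose from 2.71 and 3.46 FPKM to 8.26 and 8.61 (log2 change 1.21, adjusted p = 0.0374). Bcl3, an atypical IκB protein that partners NF-κB p50 and p52, rose from 21.2 and 20.8 to 41.5 and 46.1 FPKM (log2 change 1.02, adjusted p = 0.0261). Epas1, which encodes the hypoxia-inducible factor HIF-2α, rose from 12.3 and 11.9 to 32.5 and 25.3 FPKM (log2 change 1.18, adjusted p = 0.0374). In these 3 genes the WT libraries lay close together and both cKO libraries above them. The corepressor gene Atn1 rose by less, from 24.8 and 22.8 to 45.1 and 44.6 FPKM (log2 change 0.89, adjusted p = 0.0374).

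The other genes that rose have roles outside these groups. Rnf157, a ubiquitin ligase gene, went from 7.57 and 8.13 FPKM to 30.9 and 26.2 (log2 change 1.73, SE 0.13, adjusted p = 0.0157). Cd24a, a glycoprotein of the cell surface, went from 10.8 and 13.6 to 25.8 and 29.0 FPKM (log2 change 1.11, adjusted p = 0.0425). Kctd12, an auxiliary subunit of GABA-B receptors, went from 29.2 and 32.2 to 63.5 and 62.8 FPKM (log2 change 1.02, adjusted p = 0.0261). Smaller or lower-level rises were those of Klc3, a kinesin light chain (1.13), Agrn, the proteoglycan agrin (1.03), Tent5a, a poly(A) polymerase (0.92), and Abcb9, a lysosomal peptide transporter (0.82), all with adjusted p between 0.0303 and 0.0479. Nefm, a neurofilament chain, was near the limit of the filter, at 0.22 and 0.06 FPKM in the WT pair against 1.74 and 2.53 in the cKO pair (log2 change 1.45, adjusted p = 0.0479). It passed that filter only through the cKO pair and was called in 0 of 4 fits made with 1 library left out.

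The largest fold change of all belonged to the entry with Entrez number 15101, which has no symbol in the reference tables used here and was chosen for mention after its values were known. It was at 1.59 and 1.96 FPKM in the WT pair and at 47.7 and 41.7 in the cKO pair, with a log2 change of 4.04 (SE 0.14, adjusted p = 0.000285).

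**Figure D2:**
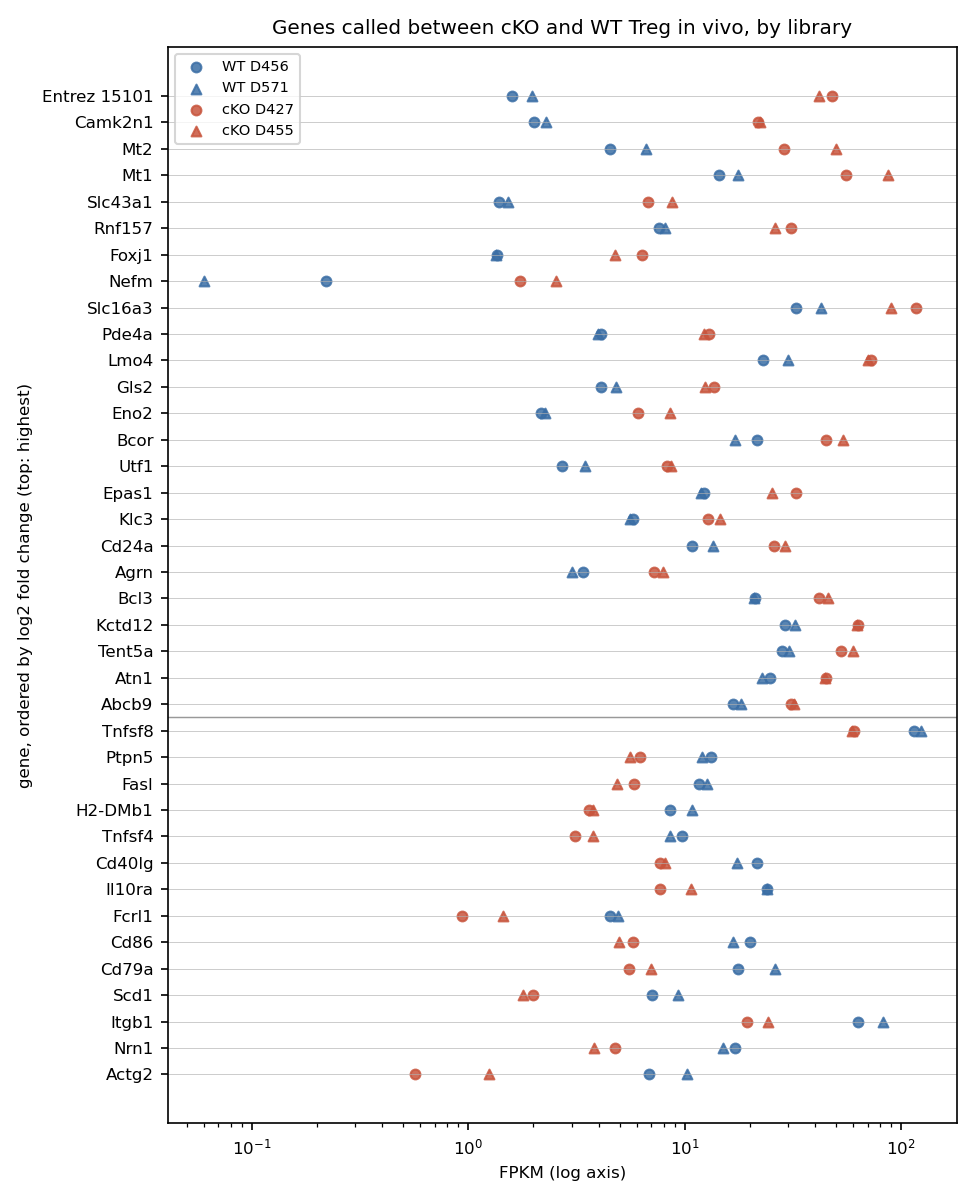
The FPKM of each called gene described here is shown for the 4 libraries on a log axis, with blue for WT, red for cKO, circles for D456 and D427 and triangles for D571 and D455; genes are ordered by log2 fold change. Red and blue do not overlap in any row: Camk2n1 lies near 2 FPKM in the WT pair and 22 in cKO, and Itgb1 at 63.2 and 82.3 in WT against 19.4 and 24.1 in the cKO pair.

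Among the genes that fell, 4 encode ligands of the TNF family, membrane proteins by which T cells signal to other immune cells. Tnfsf8, the ligand of CD30, was at 114 and 124 FPKM in the WT pair and at 60.6 and 59.1 in the cKO pair (log2 change -0.98, SE 0.10, adjusted p = 0.0261). Cd40lg, the CD40 ligand that helps B cells and dendritic cells, was at 21.6 and 17.4 FPKM in the WT pair and at 7.65 and 8.14 in the cKO pair (log2 change -1.20, SE 0.14, adjusted p = 0.0373). Levels in both cKO libraries were close together and below each WT library in each of these genes. Tnfsf4, the OX40 ligand, was at 9.68 and 8.57 FPKM in the WT pair and at 3.11 and 3.77 in the cKO pair (log2 change -1.19, adjusted p = 0.0374). Fasl, the death receptor ligand, was at 11.7 and 12.6 FPKM in the WT pair and at 5.84 and 4.88 in the cKO pair (log2 change -1.05, adjusted p = 0.0425).

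These 4 were called out of 11 tested ligands of 17 in the table, 0 were called higher, and 8 of the 11 lay below 0. The median of the 11 was -0.32 beside -0.02 over all genes tested, and it ran from -0.60 to -0.03 when 1 library was left out. The other 7 did not pass, among them Ltb with 0.13, Tnfsf9 with 0.28 and Tnfsf10 with -0.32. Of 18 tested receptors of the family 0 were called by limma, 3 had an unadjusted p under 0.05 in each direction, and the median was -0.09, which was 0.00 without library D427. The receptor Tnfrsf9 (4-1BB) came closest, at 98.4 and 107 FPKM in the WT pair against 162 and 156 in the cKO pair (log2 change 0.63, adjusted p = 0.0610).

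An integrin chain and a cytokine receptor chain fell as well. Itgb1, the β1 chain shared by many integrins (chromosome 8, 128685654 to 128733579), was at 63.2 and 82.3 FPKM in the WT pair and at 19.4 and 24.1 in the cKO pair (log2 change -1.69, SE 0.16, adjusted p = 0.0261). It was the only one of 32 tested integrin and adhesion genes to be called, and their median was -0.12. Itga6, an α chain that pairs with it, was at 47.6 and 42.4 FPKM in the WT pair against 79.1 and 63.1 in the cKO pair and did not pass (log2 change 0.64, adjusted p = 0.130). Il10ra, the ligand-binding chain of the interleukin 10 receptor, was at 24.0 in each WT library and at 7.68 and 10.6 FPKM in cKO (log2 change -1.31, SE 0.16, adjusted p = 0.0374). Of 31 tested cytokine receptor genes it alone was called, with a median of -0.11. Il10, the cytokine it binds and a product of effector Treg, was at 69.5 and 80.6 FPKM in the WT pair against 42.8 and 44.2 in the cKO pair and did not pass (log2 change -0.77, adjusted p = 0.0592).

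Cd86, a ligand of CD28 and CTLA-4, was at 20.03 and 16.8 FPKM in the WT pair and at 5.74 and 4.96 in the cKO pair (log2 change -1.61, SE 0.14, adjusted p = 0.0205). It is carried by antigen-presenting cells as well as by activated T cells. Its relative Cd80 was at 1.87 and 2.37 FPKM in the WT pair against 4.13 and 6.67 in the cKO pair and did not pass (adjusted p = 0.132). Nrn1, neuritin, a secreted product of Treg and of anergic T cells, was at 17.1 and 15.0 FPKM in the WT pair and at 4.76 and 3.82 in the cKO pair (log2 change -1.69, SE 0.14, adjusted p = 0.0205). Ptpn5, a tyrosine phosphatase gene, fell from 13.3 and 11.96 to 6.23 and 5.56 FPKM (log2 change -0.98, adjusted p = 0.0446). Actg2, an actin of smooth muscle, had the lowest fold change, from 6.86 and 10.3 to 0.57 and 1.25 FPKM (log2 change -2.32, SE 0.24, adjusted p = 0.0261). It was listed among stromal markers, of which 3 were tested with a median of -0.01.

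The markers that define Treg were present at high levels in every library, which bears on the label of the cells. Foxp3 was at 107 and 106 FPKM in the WT pair and at 114 and 117 in the cKO pair (log2 change 0.12, SE 0.09, adjusted p = 0.582). Il2ra, the high-affinity chain of the interleukin 2 receptor, was at 104 and 98.2 FPKM in the WT pair and at 118 and 154 in the cKO pair (log2 change 0.41, adjusted p = 0.307). Ctla4, the inhibitory receptor, was at 1097 and 1189 FPKM in the WT pair and at 892 and 931 in the cKO pair (log2 change -0.33, adjusted p = 0.195). Of 26 tested genes of the Treg core list 0 were called by limma. At an unadjusted p under 0.05 there were 9 higher and 4 lower, and the median was 0.20, between 0.13 and 0.19 when 1 library was left out.

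Within that list the genes nearest the threshold differed in direction. Socs2, a feedback inhibitor of cytokine signalling, was at 21.5 and 21.8 FPKM in the WT pair against 40.9 and 59.5 in the cKO pair (log2 change 1.15, adjusted p = 0.0625). Swap70, a regulator of the actin skeleton, was at 33.6 and 33.5 FPKM against 71.2 and 56.4 (log2 change 0.90, adjusted p = 0.0610). Nrp1, a surface receptor of thymus-derived Treg, was at 30.8 and 25.3 FPKM in the WT pair against 14.4 and 16.2 in the cKO pair (log2 change -0.83, adjusted p = 0.0682). The opioid precursor Penk and the signalling regulator Rgs1 differed more between the cKO libraries: Penk was at 67.6 and 66.0 FPKM in the WT pair against 91.3 and 192 in the cKO pair (adjusted p = 0.275), and Rgs1 at 304 and 308 against 163 and 239.8.

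Of 19 tested suppressor molecules only Nrn1 was called, 14 lay below 0 and the median was -0.22. Fgl2, a secreted suppressor, was at 5.92 and 7.10 FPKM in the WT pair against 1.74 and 3.60 in the cKO pair and did not pass (log2 change -1.08, adjusted p = 0.159). It was below both WT libraries in each cKO library. Of 35 tested genes of effector Treg 0 were called by limma, with 2 higher and 8 lower at an unadjusted p under 0.05. Their median was -0.23, but it was 0.03 without library D427. Of 18 tested genes of resting Treg 0 were called, with 3 in each direction at an unadjusted p under 0.05, and the median was 0.08, or -0.01 without D427. Lef1, a factor of naive T cells, was highest among them at 0.82 (adjusted p = 0.0624). Of 27 tested immediate early genes of the T cell receptor response 0 were called by limma, 1 higher and 7 lower had an unadjusted p under 0.05, and 22 lay below 0, with a median of -0.20. That median ran from -0.39 to -0.05 when 1 library was left out. Fos was at 135 and 121 FPKM in the WT pair against 59.6 and 83.0 in the cKO pair (adjusted p = 0.0988). The pan T cell list, 19 tested genes with 0 called and 3 at an unadjusted p under 0.05, had a median of 0.00.

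**Figure D3:**
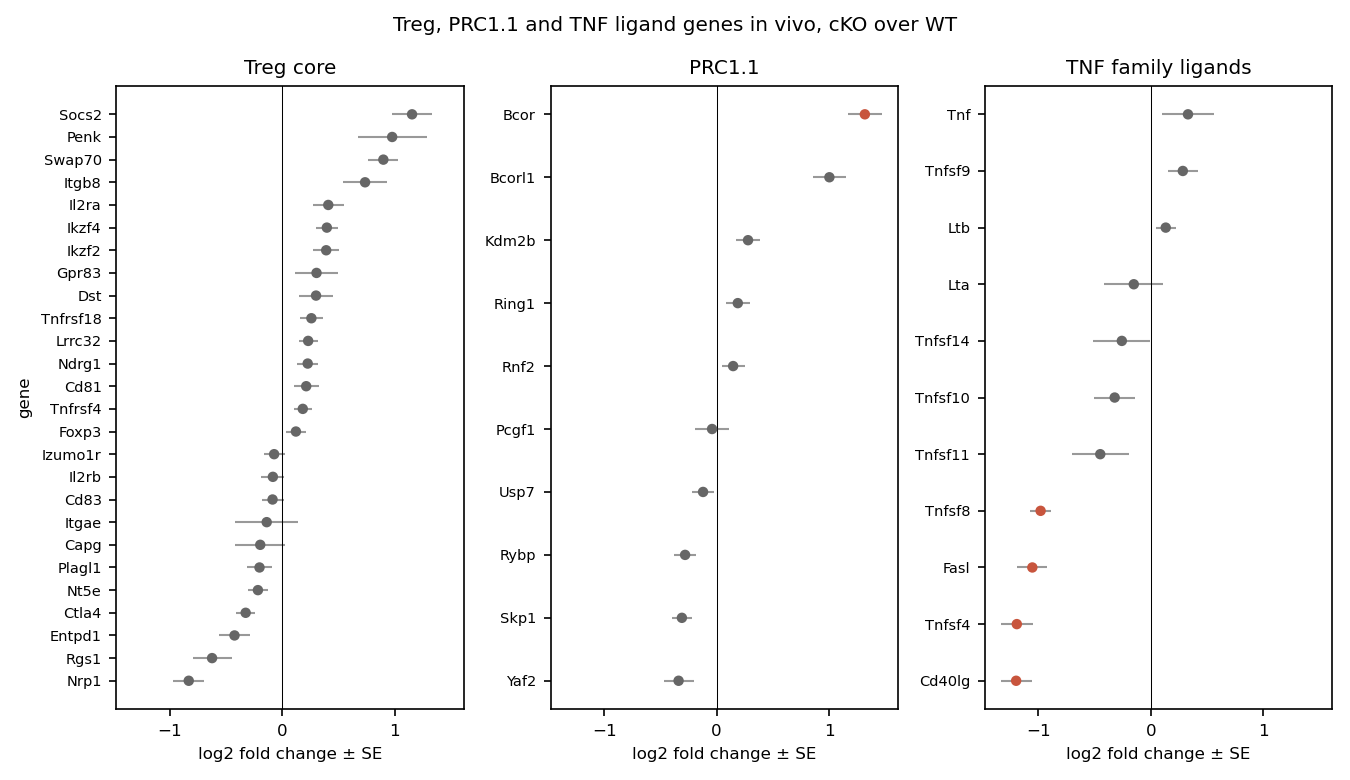
Log2 fold changes of cKO over WT in vivo are shown with the standard error of the limma fit for the tested genes of 3 lists, Treg core, PRC1.1 and TNF family ligands; called genes are in red. Bcor in PRC1.1 and Cd40lg, Tnfsf4, Fasl and Tnfsf8 among the ligands are called, and the Treg core genes run from -0.83 for Nrp1 to 1.15 for Socs2 with 0 called.

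Genes of B cells and of antigen presentation lay below 0 as lists. Cd79a, which encodes a signalling subunit of the B cell receptor, was at 17.6 and 26.1 FPKM in the WT pair and at 5.52 and 6.97 in the cKO pair (log2 change -1.64, SE 0.20, adjusted p = 0.0400). The B cell list had 19 tested genes, and all lay below 0, with a median of -1.03 and 2 of them called. The FPKM summed over its genes was 298 and 346 in the WT pair against 186 and 241 in the cKO pair, and none of the defining markers was at 0 in any library. Of these sums Cd37 alone made 179 and 196 in the WT pair and 138 and 166 in the cKO pair. Its log2 change was -0.30, smaller in size than the median of the list. Ms4a1, which encodes CD20, was at 3.89 and 5.33 FPKM in the WT pair against 1.35 and 1.75 in the cKO pair, and the B cell factor Pax5 at 3.25 and 4.39 against 0.58 and 0.99 (adjusted p = 0.0502). Pax5, Fcrla and Bank1 of this list were under 1 FPKM in each cKO library. They passed the filter on low values only through the WT pair, which limits what the median and the signs of the list show. Fcrl1, an Fc receptor-like protein of B cells, fell from 4.52 and 4.94 to 0.93 and 1.44 FPKM (log2 change -1.40, SE 0.17, adjusted p = 0.0374).

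H2-DMb1, part of the complex that loads peptides on MHC class II, fell from 8.57 and 10.8 to 3.63 and 3.75 FPKM (log2 change -1.18, adjusted p = 0.0405), and how reads shared with H2-DMb2 were counted is not given. It was the 1 called of 12 tested MHC class II genes, all of them below 0, with a median of -0.84. Their summed FPKM was 805 and 899 in WT and 432 and 555 in the cKO pair. Among them Ciita was under 1 FPKM in each cKO library and passed the filter on low values only through the WT pair. Of 26 tested myeloid genes 0 were called by limma and 4 had an unadjusted p under 0.05, all lower, with a median of -0.24 and sums of 343 and 363 FPKM in the WT pair against 282 and 343 in the cKO pair. The myeloid median ran from -0.42 to -0.04 when 1 library was left out. The share of FPKM from haemoglobin genes was 0.00341% or less in each library. These markers were lower in the same libraries as Cd86, Scd1 and Cd40lg, and their part in those results was not tested.

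The lists of the cell cycle and of mitochondria lay slightly below 0, and limma called 0 of their genes. The median was -0.21 for 32 tested genes of DNA replication, 28 of them below 0 and 8 lower at an unadjusted p under 0.05. For 27 genes of mitosis it was -0.19, with 0 genes at an unadjusted p under 0.05, and it was 0.09 without library D427. For 37 genes of oxidative phosphorylation it was -0.12, with 5 lower at an unadjusted p under 0.05. The median of 24 tested RGS and G protein genes was -0.25, 8 of them lower at an unadjusted p under 0.05. That of 27 chemokines and chemokine receptors was also -0.25, with 3 higher and 7 lower at that p, but it was 0.01 without library D427. Gpr15, a homing receptor for the colon, was at 5.11 and 6.65 FPKM in the WT pair against 2.42 and 2.61 in the cKO pair without passing (adjusted p = 0.0682). The medians of T cell receptor signalling, -0.01, and of interferon-stimulated genes, -0.02, were those of all genes, and both turned their sign with another scaling.

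The called genes were read again in the in vitro libraries, which share no library with those from the animal and were normalized in a table of their own, so no test was made between the tables. Of the 24 genes that rose in vivo, 23 were tested in vitro. In unstimulated Treg all 23 lay above 0, and in 18 of them the cKO libraries lay above both WT libraries. Of the 9842 genes that were tested in vivo and in vitro, 55.7% had the same sign, and the groups did not overlap in that direction in 17.8% of the genes tested in vitro. In stimulated Treg 18 of the 23 lay above 0, where 52.7% of all genes had the same sign. The median of the 23 was 1.35 in vivo, 0.76 unstimulated and 0.68 stimulated.

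Of the 23 genes that rose in vivo and were tested in vitro, 12 had both cKO libraries above both WT libraries in each in vitro setting. Over all genes tested in vitro that held for 17.8% unstimulated and 18.5% stimulated, each setting taken alone. Bcor was among the 12. It was at 17.1 and 26.9 FPKM in the WT pair and 54.1 and 57.3 in the cKO pair unstimulated, and at 24.3 and 29.8 against 50.4 and 64.9 stimulated. Camk2n1 had a higher WT level in vitro, 11.1 and 12.6 FPKM against 28.2 and 30.8 in the cKO pair unstimulated, with a log2 fold change of 1.25. Slc43a1 had a log2 fold change of 2.01 unstimulated and 1.71 stimulated, Lmo4 of 1.54 and 1.03, Utf1 of 2.30 and 1.32 and Cd24a of 2.16 and 2.23. The difference between the 2 in vitro settings was not tested. Mt2 was at 3.05 and 3.45 FPKM in the WT pair and 9.92 and 16.4 in the cKO pair unstimulated, but at 12.4 and 17.2 against 13.8 and 12.6 stimulated. Pde4a and Epas1 had log2 fold changes of 0.18 and 0.18 unstimulated and -0.22 and -0.10 stimulated, each near 0. Foxj1 had 0.42 unstimulated and 0.39 stimulated and Slc16a3 0.41 and 0.18, and the groups of both overlapped stimulated. Of the 23, 0 were called in vitro, where limma called 8 of 10710 genes (0.0747%) unstimulated and 2 (0.0187%) stimulated.

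Of the 15 genes that fell in vivo, 10 lay below 0 in both in vitro settings and 5 above 0 in both. Over all genes, 55.7% had the same sign as in vivo unstimulated and 52.7% stimulated. In each setting the cKO libraries lay below both WT libraries in 7 of the 15 and above both in 5. Of the genes tested in vitro, 16.6% lay lower without overlap unstimulated and 29.8% stimulated, and 17.8% and 18.5% higher. The median of the 15 was -1.40 in vivo, -0.56 unstimulated and -0.45 stimulated. Itgb1 was at 66.5 and 51.1 FPKM in the WT pair and 32.9 and 22.5 in the cKO pair unstimulated, and at 52.3 and 51.2 against 29.7 and 27.7 stimulated. Il10ra was at 11.5 and 16.5 FPKM in the WT pair and 5.91 and 6.14 in the cKO pair unstimulated, and at 31.6 and 49.1 against 14.8 and 18.7 stimulated. Tnfsf8, Cd40lg, Nrn1 and Ptpn5 also lay below 0 in both settings, Nrn1 at -0.60 and -1.70. Ptpn5 lay at -0.99 unstimulated and at -0.28 stimulated, where its groups overlapped. Cd86 lay at -0.25 unstimulated and -0.29 stimulated, with groups that overlapped in both settings. Actg2 lay at -1.42 unstimulated and at -0.45 stimulated, where its groups overlapped. Fasl lay at -0.56 unstimulated, where its groups overlapped, and at -1.24 stimulated. Tnfsf4 lay at -0.07 unstimulated and -0.86 stimulated.

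Scd1, Cd79a, Fcrl1 and H2-DMb1 were among the genes on the other side of 0 in vitro. Scd1 was at 1.76 and 2.18 FPKM in the WT pair and at 16.2 and 15.1 in the cKO pair unstimulated, a log2 fold change of 2.49 against -1.66 in vivo. Cd79a had log2 fold changes of 2.50 unstimulated and 1.27 stimulated against -1.64 in vivo. The median of the B cell list was 1.84 unstimulated and 1.67 stimulated, and that of the MHC class II genes 1.51 and 1.32, where both were below 0 in vivo. Foxp3 had log2 fold changes of -1.31 unstimulated and -1.26 stimulated without passing there (adjusted p = 0.0636 and 0.0769), beside 0.12 in vivo.

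**Figure D4:**
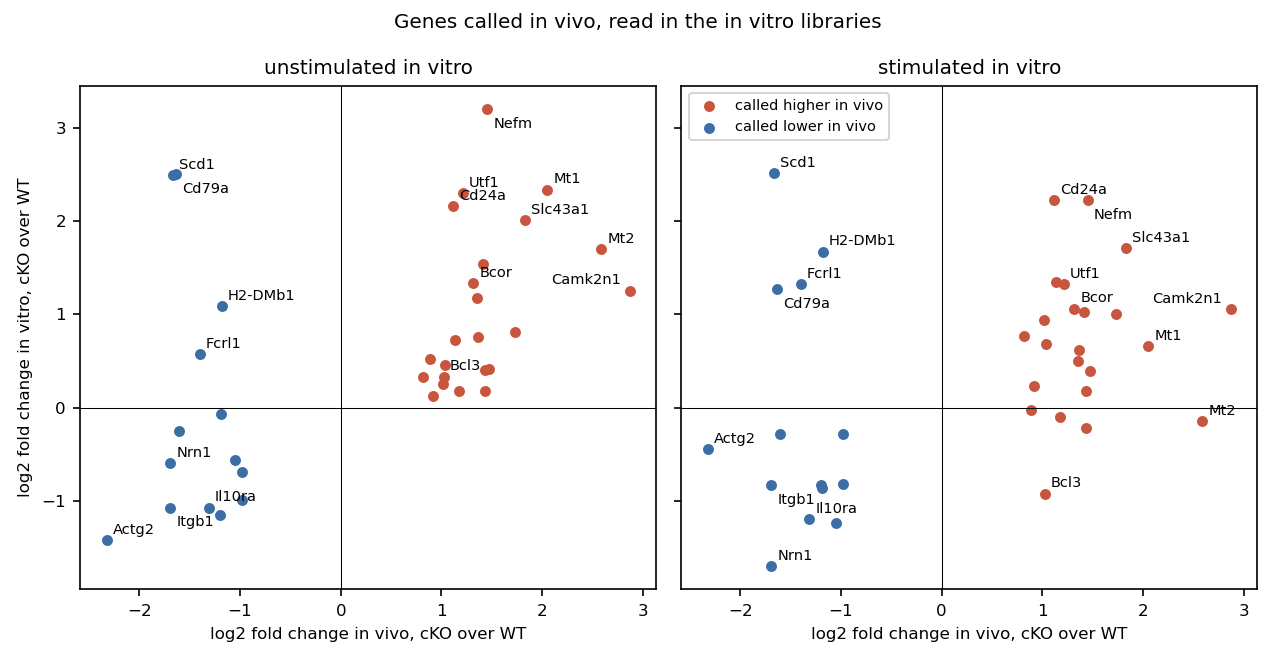
For the called genes tested in both tables, the in vivo log2 fold change is on the x axis and that in unstimulated (left) or stimulated (right) Treg in vitro on the y axis, red for genes called higher and blue for genes called lower in vivo. In the left panel all 23 red points lie above 0, and Scd1 and Cd79a lie near 2.5 among the blue points.

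Several called genes are neighbours in the genome (GRCm38). Foxj1 (116330704 to 116335499) and Rnf157 (116336345 to 116413391) are 845 bases apart on chromosome 11 and both rose. Atn1 (124742544 to 124756487) and Eno2 (124760053 to 124769673), 3565 bases apart on chromosome 6, and Mt2 and Mt1, 5315 bases apart, also rose together. Tnfsf4 (161395438 to 161418206) and Fasl (161780691 to 161788495) lie 362484 bases apart on chromosome 1 with 0 tested genes between them, and both fell. Between Klc3 and Bcl3, which are 404287 bases apart on chromosome 7, lie 12 tested genes, 0 of them called, with log2 fold changes from -0.32 to 0.26. Within 10 Mb of Kdm2b 1 of 164 tested genes was called, Abcb9 (0.61%), beside 0.374% over all genes tested. Chromosome 7 held the most called genes, 6 of 804 (0.746%), and the share was 0.629% on chromosome X and 0.628% on chromosome 6.

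Just outside the threshold, adjusted p was 0.0502 for Gpr146, an orphan receptor, and for Insm1, a zinc finger repressor of neuroendocrine cells. Gpr146 was at 17.8 and 20.1 FPKM in the WT pair against 34.0 and 34.3 in the cKO pair, and Insm1 at 0.96 and 0.76 against 4.01 and 7.17. Just inside it, Abcb9 was at 16.7 and 18.2 FPKM in the WT pair against 31.0 and 32.1 in the cKO pair. Others of the 10 nearest rises were Fzd6, a Wnt receptor (1.15), Fn1, fibronectin (1.36), and H60b, a ligand of NKG2D (0.96), with adjusted p from 0.0563 to 0.0594. Fzd6 was at 0.41 and 0.56 FPKM in the WT pair against 2.13 and 2.47 in the cKO pair. Fn1 was at 0.64 and 0.55 FPKM against 2.52 and 3.77. Insm1, Fzd6 and Fn1 were under 1 FPKM in each WT library and passed the filter on low values only through the cKO pair. Among the 10 nearest falls were the carboxylesterase Ces2c, at 7.38 and 5.73 FPKM in the WT pair against 0.66 and 1.76 in the cKO pair (log2 change -1.81), and Gpr65, an acid-sensing receptor, at 33.9 and 35.5 against 19.0 and 21.4 (-0.75). Those 2 had adjusted p of 0.0592 and 0.0610.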

How the data were processed

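The authors deposited FPKM per gene and library in 2 tables, 1 for the 4 libraries in vivo and 1 for the 8 in vitro. HISAT2 2.2.1, StringTie 2.1.1 and the builds mm10 and hg19 are named, with no role, per the submitters' processing notes; the tool, annotation and filters behind the tables are not given in the sources used here. No count model was used, because FPKM are not counts.

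Each table was tested separately in R 4.3.3 by limma 3.58.1 (a contrast of group means, eBayes with trend, two-sided) on log2(FPKM + 1), over genes whose mean reached 1 FPKM. A call needs a p under 0.05 after Benjamini-Hochberg adjustment over every gene of the fit, and no minimum fold. The 8 in vitro libraries were fitted in 1 model. In vivo entries are Entrez numbers, 16196 of 16232 matched to a RefSeq symbol. The in vitro table has 24421 symbols, 23204 of them RefSeq's and 1066 matched by a synonym. Gene positions come from RefSeq, GRCm38.p6, not from the tables. A further 4 columns belong to no sample of the series and were left out.

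The members, gene lists and tests were chosen with earlier results of these data known. Named are the called genes with a symbol, the 10 nearest uncalled genes in each direction, members of 5 lists (Treg core, PRC1.1, TNF ligands, zinc, B cells) and a few of each other list by p, besides genes said to be chosen after their values were seen; 1 called gene is not reported here. Lists are described by counts and medians, without a test. The alternatives were a pseudocount of 0.1, no filter, a floor of 5 FPKM, 3 scalings, trend-free and robust eBayes, a block for the replicate number in vitro, a fit of each stimulation alone (added after seeing the data) and leaving out each library. The limma step was tested on simulated data with known changes.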

Additional observations from a re-analysis of the deposited data

Results flagged for a closer look

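For 5 called genes described here, every cKO library lay on one side of both WT libraries in vivo and on the other side in vitro. This held in both in vitro settings except for Bcl3, where it held only stimulated. Of all genes tested in vitro, 17.8% lay higher and 16.6% lower without overlap unstimulated, and 18.5% and 29.8% stimulated. The difference between in vivo and in vitro was not tested, because the tables were normalized separately. Scd1 had a log2 fold change of -1.66 in vivo, 2.49 unstimulated and 2.51 stimulated, and it was called in all 3 comparisons (limma), the last of them not when only the 4 stimulated libraries were fitted. Cd79a had -1.64 in vivo, 2.50 unstimulated, where it was also called, and 1.27 stimulated. Fcrl1 had -1.40 in vivo, 0.58 unstimulated and 1.33 stimulated, and H2-DMb1 had -1.18, 1.09 and 1.67. Neither was called in vitro (limma, adjusted p = 0.835 and 0.147 for Fcrl1 and 0.868 and 0.300 for H2-DMb1). H2-DMb1 was at 2.90 and 0 FPKM in the stimulated WT pair. Bcl3 had 1.02 in vivo and -0.92 in stimulated Treg, where it was at 35.1 and 64.1 FPKM in the WT pair against 22.9 and 26.4 in the cKO pair. It was not called there (limma, adjusted p = 0.239). Unstimulated, Bcl3 had 0.33 and its groups overlapped, at 31.0 and 45.2 FPKM in the WT pair against 42.5 and 52.8 in the cKO pair.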

How the results depend on the processing

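Beside the 39 genes called in vivo, limma called 0 without the filter on low values (1740 at an unadjusted p under 0.05), 74 with median-of-ratios scaling (47 higher, 27 lower) and 25 without the trend. It called 40 with a pseudocount of 0.1, 32 with a floor of 5 FPKM, 52 after quantile normalization, 54 after rescaling to a common sum and 58 with robust eBayes. Leaving out 1 library gave 17 (without WT D571) to 1994 (without cKO D455), with 29 without WT D456 and 425 without cKO D427; the lone library of a genotype is then assumed to vary like the other genotype's. Unstimulated in vitro, 8 calls became 1 without the filter and 4 without the trend, and 0 to 28 when 1 library was left out: 0 without either cKO unstimulated library (305 and 553 at an unadjusted p under 0.05), 3 without either cKO stimulated one, and 26 and 28 without WT stimulated replicate 1 and 2. Stimulated, 2 calls became 0 with a pseudocount of 0.1 (1479 at an unadjusted p under 0.05), 0 without the filter (1957), 5 without the trend, and 0 to 197 when 1 library was left out. They were 197 without WT stimulated replicate 1, 8 without either WT unstimulated library, and 0 without any other (702 to 1229 at an unadjusted p under 0.05). No paired analysis was possible in vivo because the columns carry no replicate number. In vitro, same-numbered unstimulated and stimulated libraries of a genotype deviated together (correlation 0.42 in cKO, 0.24 in WT), while same-numbered WT and cKO libraries showed no common pairing (-0.14 to 0.06). With the replicate block, 8 and 0 genes were called, the latter with 1626 at an unadjusted p under 0.05. The fit of all 8 libraries treats the unstimulated and stimulated libraries as independent. An alternative chosen after seeing the data, only the 4 libraries of that stimulation, called 10 unstimulated and 0 stimulated (1510 at an unadjusted p under 0.05). The cause of these shifts was not tested. Of 1622 recomputed fold changes of 138 genes, 3 turned their sign, all of uncalled genes near 0 with 1 library left out: Mtf1 ran from -0.0913 (without cKO D427) to 0.17 and Pcgf1 from -0.18 to 0.10 (without cKO D455). Called genes kept their call in 345 values and lost it in 103. The median of 4 of 43 lists turned its sign with a scaling and that of 21 without 1 library. With unknown depth, no precision can be given for low genes such as Nefm.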

Other observations

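The largest fold change among the uncalled genes came with a wide gap between libraries of 1 genotype, and the gene is named after its values were known. Gdpd3, a glycerophosphodiester phosphodiesterase, was at 61.6 and 0.60 FPKM in the WT pair and at 185 and 59.6 in the cKO pair (log2 change 3.41, adjusted p = 0.408).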
